A study of Mus musculus with 16 samples.

Results

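The effect of ASO1, an antisense oligonucleotide directed against Dnm2, was examined in the tibialis anterior of WT mice, that is, in muscle without the Dnm2 mutation. The comparison was chosen by the labels and took 6 of the 16 libraries of the series. There were 2 WT ASO1 libraries and 4 WT ASO Control libraries, the controls from WT mice given a control oligonucleotide. All mice were male, of the C57BL/6N strain and aged 7 weeks. The other 10 libraries came from mice of the same strain, sex and age that carried a mutant Dnm2 allele (Dnm2SL/+), of which 4 had received ASO1 and 6 ASO Control. They entered the fit and are given only where the effect in WT is set against the effect in the mutant. WT ASO Control 4 bears a label that the submitters revised once the series was public. Dose, route and number of injections are not given in the sources used here. The labels number the samples within a group without naming the animals, so p-values measure the spread between these samples.

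Dnm2 encodes dynamin 2, a large GTPase that assembles around the neck of a budding vesicle and severs it from the membrane. In skeletal muscle it is also linked to the T-tubules, the inward folds of the plasma membrane that meet the sarcoplasmic reticulum at the triad. Dominant mutations of human DNM2 cause centronuclear myopathy, in which nuclei lie in the centre of the muscle fibre. An antisense oligonucleotide pairs with a transcript and can direct its cleavage by RNase H. The tibialis anterior is a mostly fast-twitch muscle of the lower leg.

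Dnm2 (ENSMUSG00000033335, GRCm38 chromosome 9, 21424908 to 21507759, plus strand) was at less than 50% of its control level in both WT ASO1 libraries. It stood at 22.96 and 25.0 counts scaled to library size (CPM, after TMM scaling) in WT ASO1 1 and 2, against 52.8, 55.7, 45.4 and 57.2 CPM in WT ASO Control 1 to 4. The groups did not overlap. WT ASO1 kept 0.454 of the control level (95% confidence interval 0.334 to 0.619), a log2FC of -1.14 ± 0.20 (SE). The unadjusted p was 4.7e-05, the smallest among genes with a negative log2FC that the naming rule admitted, and the adjusted p over all genes was 0.22 in edgeR and 3.7e-04 in DESeq2. An exact two-sided permutation test gave p = 0.13, the smallest p that 2 against 4 libraries allow. Tmed1, whose exons overlap Dnm2 on the other strand, stood at 36.6 and 33.7 CPM in WT ASO1 and between 32.7 and 33.9 CPM in WT ASO Control.

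**Figure D1:**
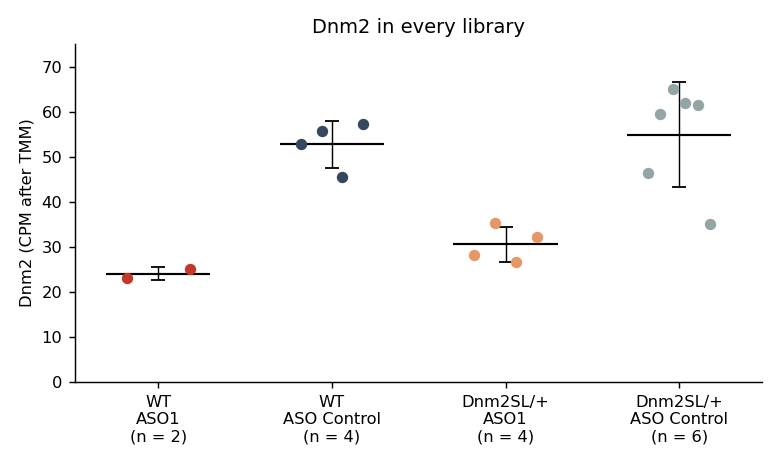
Dnm2 in CPM after TMM scaling (vertical axis) in each library of the 4 groups. Points are libraries, the long bar is the group mean and the error bar 1 SD. The WT ASO1 libraries sit at 22.96 and 25.0 CPM, below all 4 WT ASO Control libraries.

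In the mutant, ASO1 left Dnm2 at 26.6 to 35.2 CPM in 4 Dnm2SL/+ ASO1 libraries, against 35.2 to 65.1 CPM in 6 Dnm2SL/+ ASO Control libraries (log2FC -0.85 ± 0.15, SE, edgeR adjusted p = 0.0016). The effect of ASO1 on Dnm2 in WT minus that in the mutant was -0.29 ± 0.24 (SE) on the log2 scale, with an edgeR adjusted p of 0.55 for the interaction.

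The libraries held 30148163 to 33667052 counts, and the WT ones 20340 to 20944 genes with a count. The 10 genes that define skeletal muscle were each counted in every WT library, with Acta1, the actin of the fibre, at 42709 and 39401 CPM in WT ASO1 and 34969 to 39514 CPM in WT ASO Control. Mitochondrially encoded genes took 10.7% and 13.9% of counts in WT ASO1, against 11.98% to 13.3% in WT ASO Control, and the 20 most counted genes took 37.3% and 37.2%, against 35.2% to 37.0%. Exact permutation tests of these shares gave p = 0.80 and p = 0.13 (0.80 and 0.27 adjusted over both). On the leading principal component of the 6 WT libraries (26.7% of variance), WT ASO1 1 stood at -40.6 and WT ASO1 2 at 7.27, inside the -16.5 to 26.7 of the controls. With the 500 most variable genes alone, WT ASO1 1 and 2 stood at -4.20 and -1.24, both inside the -15.6 to 32.0 of the controls. The root mean square log2 difference over all genes was 0.565 between the WT ASO1 libraries, 0.493 to 0.611 across the groups and 0.486 to 0.597 among the controls. WT ASO1 2 was nearer to each control (0.493 to 0.546) than to WT ASO1 1 (0.565). WT ASO1 1 stood 0.534 to 0.611 from the controls. Each treated library is given separately throughout.

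Over the 15649 genes tested, edgeR called none between WT ASO1 and WT ASO Control at an adjusted p under 0.05 (0% called). At an unadjusted p under 0.05, 884 genes (5.65%) had a positive log2FC and 721 (4.61%) a negative one. DESeq2 on the same genes called 101 (0.645%), of which 75 were higher and 26 lower in WT ASO1. All 101 had both WT ASO1 libraries outside the range of the 4 controls, and 90 of them had an absolute log2FC of 0.5 or less. Only Dnm2 and Tnxb, a matrix tenascin, exceeded 1 on this scale among the DESeq2 calls. Tnxb, singled out after its values were seen, stood at 19.5 and 33.1 CPM in WT ASO1, against 86.3, 45.7, 63.7 and 40.8 CPM in WT ASO Control. Without WT ASO1 2, edgeR called 9 genes, all higher in WT ASO1 1 than in the controls, in a fit that assumes the lone library to vary like the other groups.

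For the groups of genes below, a member is counted as above or below when both WT ASO1 libraries lie beyond all 4 WT ASO Control libraries. Over all tested genes 1521 (9.72%) were above and 1362 (8.70%) below, and the median log2FC was -0.02. In bulk muscle, fewer cells of a type and less RNA per cell cannot be told apart.

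The 12 genes of smallest p among those higher in WT ASO1 had small differences, with log2FC of 0.26 to 0.57 and adjusted p of 0.22 in edgeR. Srp9, a subunit of the signal recognition particle that brings nascent proteins to the endoplasmic reticulum, stood at 29.0 and 25.0 CPM in WT ASO1 and at 18.9, 20.9, 19.3 and 20.5 CPM in WT ASO Control (log2FC 0.44 ± 0.08, SE). Fis1, an outer membrane protein of mitochondrial fission, stood at 93.2 and 84.1 CPM in WT ASO1 and at 71.3, 70.1, 64.1 and 74.99 CPM in WT ASO Control (log2FC 0.34 ± 0.07, SE). Mrpl42, a protein of the mitochondrial ribosome, stood at 169 CPM in both WT ASO1 libraries and at 126 to 136 CPM in WT ASO Control. Its companion in the small mitochondrial ribosomal subunit, Mrps34, had a log2FC of 0.32. Psmb4, a beta subunit of the proteasome core, stood at 132 and 124 CPM in WT ASO1 and at 100.3 to 110.1 CPM in WT ASO Control (log2FC 0.26 ± 0.06, SE).

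Tecr, which completes each cycle of very long chain fatty acid elongation, stood at 307 and 234 CPM in WT ASO1 and at 192 to 211 CPM in WT ASO Control (log2FC 0.43 ± 0.09, SE), so that most of its difference came from WT ASO1 1. Qdpr, which regenerates tetrahydrobiopterin, had a log2FC of 0.37, Gde1, a glycerophosphodiesterase, 0.33, and Ube2r2, a ubiquitin-conjugating enzyme, 0.32. Tmem208, a protein of the endoplasmic reticulum, had 0.36, Arl6ip4 had 0.38 and Dexi 0.57. DESeq2, a second fit to the same counts and so no independent support, called each of the 12.

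The 12 genes of smallest p among those lower in WT ASO1 held Dnm2 and 11 genes with log2FC of -0.62 to -0.27 and edgeR adjusted p of 0.22 to 0.24. Thrb, the beta receptor for thyroid hormone, stood at 11.3 and 11.6 CPM in WT ASO1 and at 14.4, 17.4, 20.1 and 18.2 CPM in WT ASO Control (log2FC -0.62 ± 0.12, SE). Itsn2, an intersectin that scaffolds clathrin-coated pits and binds dynamin, stood at 22.7 and 22.9 CPM in WT ASO1 and at 27.0, 27.8, 28.5 and 26.6 CPM in WT ASO Control (log2FC -0.27 ± 0.06, SE). Exoc4, a subunit of the exocyst that tethers secretory vesicles, stood at 65.1 and 63.9 CPM in WT ASO1 and at 82.7 to 95.9 CPM in WT ASO Control (log2FC -0.46 ± 0.10, SE). Rab6b, a GTPase of the Golgi, had a log2FC of -0.60 and Vps13c, a carrier of lipids between organelles, -0.42. Spen, a transcriptional repressor, had -0.56, Zfp507, a zinc finger protein, -0.48, Smc3 of cohesin -0.35 and Smarcc2 of the BAF remodelling complex -0.29. Pigg, which modifies glycosylphosphatidylinositol anchors, had -0.43.

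The higher and the lower genes differed in length. The summed exon length ran from 1442 to 5541 bases among the 12 higher genes and from 4573 to 16299 bases among the 12 lower ones, and among the DESeq2 calls the median was 2040 bases for the higher and 8316 bases for the lower genes, against 4116 bases over all tested genes. When all tested genes were split into 5 equal groups by exon length, the median log2FC was 0.12, 0.04, -0.02, -0.06 and -0.11 from the shortest to the longest. In the shortest group 17.4% of genes were above and 3.32% below, and in the longest 2.78% were above and 17.3% below. The median of the shortest group minus that of the longest was 0.26 in WT ASO1 1 and 0.19 in WT ASO1 2, against 0.030, 0.045, -0.10 and 0.029 in WT ASO Control 1 to 4. Both treated libraries thus stood apart from the controls on this measure. It ran from 0.062 to 0.19 in Dnm2SL/+ ASO1 and from 0.085 to 0.24 in Dnm2SL/+ ASO Control. With an offset for exon length fitted in each library, Dnm2 had a log2FC of -1.11, Srp9 0.47 and Thrb -0.55, while Fis1 had 0.21, Tmem208 0.22 and Psmb4 0.15. The offset was added after the data were seen, and what gave rise to the length trend was not tested.

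**Figure D2:**
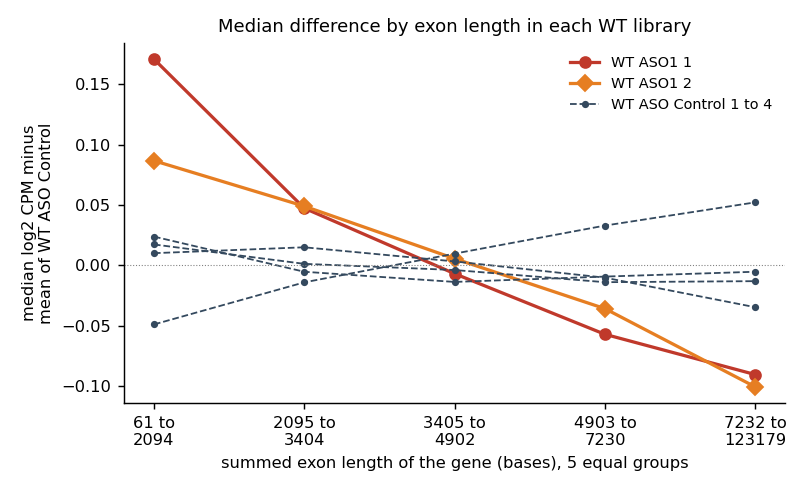
Median over genes of log2 CPM minus the mean of the 4 WT ASO Control libraries (vertical axis) in 5 equal groups of genes by summed exon length in bases (horizontal axis), a line per WT library. WT ASO1 1 and 2 run from 0.17 and 0.087 in the shortest group to -0.090 and -0.10 in the longest, and the dashed control lines stay within 0.052 of 0.

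Among the 7 dynamin-related GTPases tested, only Dnm2 was below and none was above. Dnm1, the neuronal dynamin, was low in this muscle, with 2.33 and 3.70 CPM in WT ASO1 and 7.30, 4.29, 4.58 and 3.34 CPM in WT ASO Control, so that the groups overlapped (log2FC -0.69 ± 0.26, SE). Dnm3, a further dynamin, had a log2FC of -0.09 ± 0.22 (SE). The mitochondrial members, of which Opa1 fuses inner membranes, Mfn1 and Mfn2 fuse outer membranes and Dnm1l divides the organelle, had log2FC of -0.09, -0.04, -0.03 and -0.02, and the ranges of the groups overlapped for each. No member of the family stood above the controls in both WT ASO1 libraries.

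The 50 genes of endocytosis and membrane curvature were mixed, with 8 above, 6 below and a median of -0.09, and edgeR called none. Ap2s1, the small subunit of the AP2 clathrin adaptor, stood at 31.9 and 27.4 CPM in WT ASO1 and at 24.7, 21.3, 21.4 and 25.2 CPM in WT ASO Control (log2FC 0.36 ± 0.09, SE, DESeq2 adjusted p = 0.037). Itsn2, given above, was the other member of smallest p and lay in the opposite direction. Ap2s1 and Itsn2 have exons of 1472 and 13579 bases in sum. With the exon length offset they had log2FC of 0.22 and -0.15, and the median of the list was -0.02.

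Of the 8 tested genes of centronuclear myopathy, 1 was above and 4 were below, Dnm2 included. Bin1, which curves the T-tubule membrane and binds dynamin, was the 1 above, at 773 and 654 CPM in WT ASO1 and 599.8 to 622 CPM in WT ASO Control (log2FC 0.23 ± 0.09, SE, edgeR adjusted p = 0.42). Speg, a kinase of the triad, stood at 441 and 421 CPM in WT ASO1 and at 465, 496, 547 and 488 CPM in WT ASO Control (log2FC -0.21 ± 0.08, SE). Mtm1, the myotubularin whose loss causes the X-linked form, stood at 17.3 and 19.02 CPM in WT ASO1 and at 19.9 to 21.6 CPM in WT ASO Control (log2FC -0.18 ± 0.09, SE). Mtmr14, a related phosphatase, had -0.11. Speg and Mtm1 have exons of 12741 and 13935 bases in sum and had log2FC of -0.09 and -0.06 with the length offset. Over the 24 myotubularins and phosphoinositide kinases, 1 was above and 5 below (median -0.08), and the member of smallest p was Pik3r4, the regulatory subunit of the class III kinase (log2FC -0.24 ± 0.11, SE).

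Of the 32 genes of the triad and of calcium handling, 4 were above and 3 below (median 0.04). Above were Pvalb, the calcium buffer of fast fibres, Casq1, the calsequestrin that holds calcium in the store, Jsrp1, a triad protein, and Cav3, the caveolin of muscle. Casq1 stood at 5416 and 3831 CPM in WT ASO1 and at 3390 to 3693 CPM in WT ASO Control. Cav3 stood at 62.6 and 58.0 CPM in WT ASO1 and at 50.7, 48.1, 39.9 and 52.9 CPM in WT ASO Control (log2FC 0.33 ± 0.09, SE, edgeR adjusted p = 0.28). Below were Scn4a, the sodium channel of muscle, with 548 and 464 CPM in WT ASO1 and 589 to 749 CPM in WT ASO Control, Clcn1, the muscle chloride channel, and the calcium sensor Stim1. For 20 of the 32 genes WT ASO1 1 held the highest value of the 6 libraries, and for 12 WT ASO1 2 held the lowest.

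The fibre type genes separated the 2 treated libraries from each other. Of 14 slow fibre genes none was above or below, since the median difference from the control mean was -1.31 in WT ASO1 1 and 0.06 in WT ASO1 2 on the log2 scale, against -0.15 to 0.14 in the controls. WT ASO1 1 held the lowest value of the 6 libraries for 11 of the 14. Tnni1, the slow troponin I, stood at 0.566 and 3.31 CPM in WT ASO1 and at 2.43, 4.23, 2.68 and 3.16 CPM in WT ASO Control. Tnnt1, the slow troponin T, stood at 1.38 and 6.79 CPM in WT ASO1 and at 4.62 to 7.03 CPM in WT ASO Control, and Myh7, the slow myosin heavy chain, at 1.1 and 3.13 CPM and at 2.58 to 8.26 CPM. Ankrd2, a stretch-responsive gene of slow fibres, followed the same order, with 60.1 and 159 CPM in WT ASO1 and 72.4 to 195 CPM in WT ASO Control. Csrp3, the muscle LIM protein, had the smallest p of the list, at 19.6 and 44.8 CPM in WT ASO1 and 104, 35.3, 94.9 and 69.9 CPM in WT ASO Control (log2FC -1.24 ± 0.41, SE, edgeR adjusted p = 0.33). The list median log2FC was -0.46, 0.03 without WT ASO1 1 and -1.61 without WT ASO1 2, so a single library set it.

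Of 16 fast fibre genes, 7 were above and none below, with a median log2FC of 0.23. WT ASO1 1 was again the farther library, with a median difference of 0.41 from the control mean against 0.06 in WT ASO1 2, and it held the highest value for 13 of the 16. Tnnc2, the fast troponin C, stood at 11552 and 8987 CPM in WT ASO1 and at 7642, 8019, 7774 and 7905 CPM in WT ASO Control (log2FC 0.39 ± 0.09, SE, edgeR adjusted p = 0.23, DESeq2 adjusted p = 0.0047). Pvalb stood at 12448 and 8121 CPM in WT ASO1 and at 7015, 7241, 7346 and 7094 CPM in WT ASO Control (log2FC 0.52 ± 0.13, SE, edgeR adjusted p = 0.27). Tpm1, the alpha tropomyosin, had 23620 and 15916 CPM in WT ASO1 and 13020 to 14779 CPM in WT ASO Control. Of the myosin heavy chains, Myh4, of type IIB fibres, stood at 44064 and 30632 CPM in WT ASO1 and at 34408 to 43427 CPM in WT ASO Control, Myh1, of type IIX fibres, at 8663 and 12106 CPM and at 11315 to 15984 CPM, and Myh2, of type IIA fibres, at 555 and 1235 CPM and at 870.1 to 2800 CPM. WT ASO1 1 thus held the highest Myh4 and the lowest Myh1 and Myh2 of the 6 libraries. The median of the list was 0.14 with the exon length offset and 0.06 without WT ASO1 1.

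Energy metabolism followed the same split between the libraries. Over 31 genes for the uptake and oxidation of fatty acids, the median difference from the control mean was -0.27 in WT ASO1 1 and 0.17 in WT ASO1 2, against -0.11 to 0.09 in the controls. WT ASO1 1 held the lowest value for 23 of these genes and WT ASO1 2 the highest for 18, while the list median log2FC was -0.01. Lpl, the lipoprotein lipase, stood at 471 and 798 CPM in WT ASO1 and at 742 to 938 CPM in WT ASO Control. Acadvl, the dehydrogenase of very long chain acyl-CoA, stood at 565 and 797 CPM in WT ASO1 and at 610.5 to 701 CPM in WT ASO Control. Cpt1b, the muscle carnitine palmitoyltransferase, was the 1 member low in both, at 12.8 and 14.02 CPM in WT ASO1 and 16.8, 17.0, 22.4 and 22.0 CPM in WT ASO Control (log2FC -0.54 ± 0.14, SE, edgeR adjusted p = 0.27, DESeq2 adjusted p = 0.037). Its exons overlap another annotated gene on the same strand. Etfb, the beta subunit of the electron transfer flavoprotein, was the member of next smallest p, with a log2FC of 0.36. Of 27 genes of glycolysis and glycogen 2 were above and none below (median 0.09). They were Ldha, the muscle lactate dehydrogenase, at 3260 and 2664 CPM in WT ASO1 and 2158 to 2358 CPM in WT ASO Control, and Pgam2, the muscle phosphoglycerate mutase, at 2622 and 2087 CPM and at 1676 to 1967 CPM. WT ASO1 1 held the highest value for 15 of the 27.

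**Figure D3:**
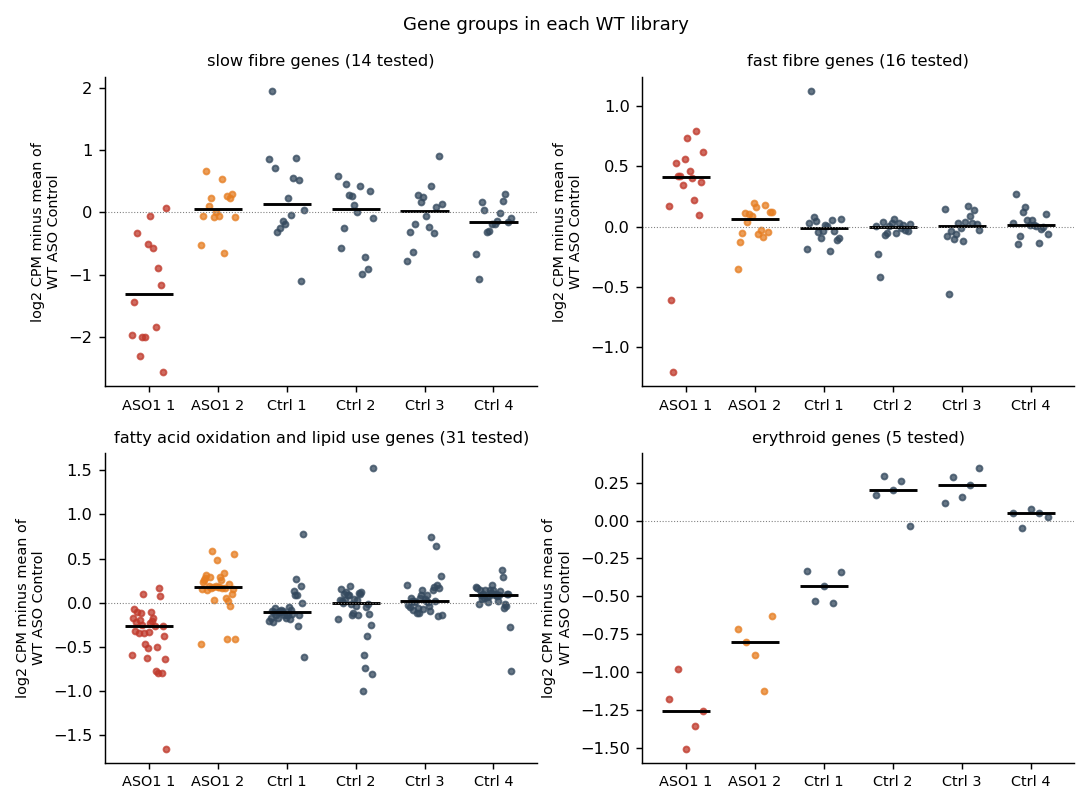
Log2 CPM minus the mean of the 4 WT ASO Control libraries (vertical axis) for each tested member of 4 gene groups in each WT library (horizontal axis, treated libraries on the left). Points are genes and bars are medians. Slow fibre genes lie low in WT ASO1 1 (median -1.31) and near the controls in WT ASO1 2 (0.06), fast fibre genes the other way round in WT ASO1 1 (0.41), and erythroid genes lie low in both.

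Nuclear genes of the respiratory chain were higher in both treated libraries by a small amount. Of 36 complex I genes 15 were above and none below, of 40 genes of complexes II to V 17 were above and none below, and 75 of these 76 genes had a positive log2FC (46.8% over all genes). The complex I genes had a median log2FC of 0.20 and those of complexes II to V one of 0.15, and no gene was called by edgeR or DESeq2. Cox4i1, of complex IV, stood at 967 and 936 CPM in WT ASO1 and at 760.0, 783, 734 and 808 CPM in WT ASO Control (log2FC 0.30 ± 0.09, SE, edgeR adjusted p = 0.31). Ndufa12, of complex I, stood at 90.4 and 85.5 CPM in WT ASO1 and at 67.4, 74.1, 64.3 and 79.3 CPM in WT ASO Control (log2FC 0.30 ± 0.10, SE). Ndufs7, an iron-sulfur subunit of complex I, stood at 363 and 366 CPM in WT ASO1 and at 277 to 313 CPM in WT ASO Control, and Uqcrh, of complex III, at 327 and 275 CPM and at 233 to 272 CPM. The list medians were 0.27 and 0.13 in WT ASO1 1 and 2 for complex I, against -0.07 to 0.12 in the controls, so WT ASO1 2 stood just above the highest control. These genes are short, with a median exon length of 1737 bases. Among the 7571 other genes in the same range of lengths, 14.1% were above and the median log2FC was 0.05, and with the length offset the median of the 76 genes was 0.05.

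Promoters are shown for 2 complex I genes, since 75 of the 76 respiratory genes had a positive log2FC and many are known targets of nuclear respiratory factor 1 (NRF1). Promoter sequences from RefSeq (GRCm38.p6) were matched for 63 of the 76 genes, with the start listed first for each. The core of the NRF1 motif (GCGCA, any 1 base, GCGC) was searched on both strands in the 250 bases before the start. It was found in 11 of the 63 promoters (17.5%), in 4 of the 24 whose gene was above (16.7%) and in 3.86% of 27025 genes with a promoter. The 27025 include genes that were not tested here, so the shares are not from like sets. The sequences below are the 100 bases before the start, 5′ to 3′, for the members above with the smallest p that hold the core, and capitals mark each match.
Ndufa8, GRCm38.p6 chr2:36049339-36049438, minus strand: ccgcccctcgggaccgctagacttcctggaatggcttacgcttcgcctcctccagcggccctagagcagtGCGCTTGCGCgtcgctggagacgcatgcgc
Ndufb4, GRCm38.p6 chr16:37654369-37654468, minus strand: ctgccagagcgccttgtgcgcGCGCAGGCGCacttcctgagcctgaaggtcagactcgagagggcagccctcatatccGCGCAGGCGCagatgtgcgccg
Ndufa8 stood at 251 and 259 CPM in WT ASO1 and at 198 to 236 CPM in WT ASO Control (log2FC 0.27 ± 0.10, SE), and Ndufb4 at 23.6 and 24.8 CPM and at 16.2 to 21.3 CPM (log2FC 0.32 ± 0.13, SE). The ETS core CGGAAGTG, searched in the same way, was in 3 of the 63 promoters (4.76%) and in 2.51% of all. A match is a description of the sequence and not evidence of binding.

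Transcripts of the mitochondrial chromosome did not share this pattern. Of 9 tested none was above or below, and the median difference was -0.11 in WT ASO1 1 and 0.16 in WT ASO1 2. mt-Nd5 stood at 12074 and 16411 CPM in WT ASO1 and at 15267 to 17364 CPM in WT ASO Control (log2FC -0.17 ± 0.13, SE), and mt-Co1 at 27293 and 34511 CPM and at 28275 to 34562 CPM. mt-Nd6, the 1 protein encoded on the light strand, had a log2FC of -0.37 ± 0.28 (SE).

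Other large complexes made of many genes stood higher as well. Their median exon length was 2533 bases for the mitochondrial ribosome, 1835 for the cytosolic ribosome and 2820 for the proteasome. These 3 lists were added after the values were seen. Of 77 proteins of the mitochondrial ribosome 32 were above and none below (median 0.16), and the medians were 0.17 and 0.15 in WT ASO1 1 and 2 against -0.08 to 0.12 in the controls. Of 78 proteins of the cytosolic ribosome 27 were above and none below (median 0.17). Rps20 stood at 34.1 and 32.0 CPM in WT ASO1 and at 25.4 to 27.3 CPM in WT ASO Control, and Rps14 at 181 and 182 CPM and at 133 to 153 CPM, but counts of ribosomal genes are uncertain because of their many near-identical pseudogenes. Of 37 proteasome subunits 15 were above and none below (median 0.14), among them Psmd13 of the regulatory particle, at 106 and 92.6 CPM in WT ASO1 and 78.2 to 83.9 CPM in WT ASO Control. The proteasome medians were 0.23 in WT ASO1 1 and 0.07 in WT ASO1 2. With the exon length offset the medians were 0.07, 0.04 and 0.07 for the mitochondrial ribosome, the cytosolic ribosome and the proteasome.

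An oligonucleotide can be sensed as foreign nucleic acid, and both groups had received one. Of 33 interferon and nucleic acid sensing genes 5 were above and none below (median 0.11), all at low levels. The log2FC was negative for 13 of the 33. The list median difference was 0.11 in WT ASO1 1 and 0.09 in WT ASO1 2, inside the -0.20 to 0.13 of the controls. Irf7, which amplifies interferon transcription, stood at 8.31 and 7.30 CPM in WT ASO1 and at 4.77 to 5.38 CPM in WT ASO Control (log2FC 0.60 ± 0.31, SE, edgeR adjusted p = 0.52). Bst2, the interferon-induced tetherin, stood at 15.4 and 9.53 CPM in WT ASO1 and at 6.86 to 9.42 CPM in WT ASO Control (log2FC 0.64 ± 0.28, SE), and Dhx58, a cytoplasmic RNA helicase, had a log2FC of 0.74 ± 0.33 (SE). Isg15 and Ifit3, both induced by interferon, had 0.60 and 0.62. Of 13 genes of class I antigen presentation 4 were above, and all 13 had a positive log2FC (median 0.12). The class I heavy chains H2-D1 and H2-K1 stood at 83.9 and 85.1 CPM and at 79.1 and 75.7 CPM in WT ASO1, against 68.5 to 77.9 CPM and 59.4 to 69.6 CPM in WT ASO Control. Their counts are uncertain between near-identical class I genes. No member of either list was called by edgeR or DESeq2. Psmb8 and Psme2, of the immunoproteasome, had log2FC of 0.38 and 0.12. Over 15 genes of RNase H and nucleic acid turnover 1 was above and 1 below (median 0.02). They were Rnaseh2a, a subunit of RNase H2 (log2FC 0.16 ± 0.10, SE), and Stab1, a scavenger receptor that takes up oligonucleotides, at 21.0 and 20.7 CPM in WT ASO1 and 34.7, 28.5, 27.5 and 22.1 CPM in WT ASO Control (log2FC -0.43 ± 0.17, SE).

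Genes of red blood cells were the 1 group of another cell type with every tested member below. Hbb-bs, a beta globin, stood at 13.8 and 21.3 CPM in WT ASO1 and at 29.2, 45.2, 44.0 and 41.5 CPM in WT ASO Control (log2FC -1.19 ± 0.73, SE, edgeR adjusted p = 0.61). Hbb-bt, Hba-a1, Hba-a2 and Alas2, the erythroid enzyme of haem synthesis, had log2FC of -1.29, -0.95, -0.94 and -0.96, and no p was under 0.05 in edgeR. The globin pairs are near-identical copies between which counts can be split, and the 5 genes share their source, so they do not count as separate evidence. The part of blood left in the tissue in other results was not tested.

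Markers of connective tissue cells varied as much among the controls as between the groups. Of 12 fibro-adipogenic progenitor markers none was above or below, and the median difference was -1.26 in WT ASO1 1 and -0.17 in WT ASO1 2, against 0.75 in WT ASO Control 1 and -0.47 to 0.02 in the other controls. Gsn, the actin-severing gelsolin, stood at 187 and 402 CPM in WT ASO1 and at 809, 326, 575 and 341 CPM in WT ASO Control (log2FC -0.80 ± 0.34, SE). Dpt, a matrix protein, had -0.74 and Pdgfra, the receptor that defines these cells, -0.87. WT ASO1 1 held the lowest value for 10 of the 12 markers and WT ASO Control 1 the highest for 11. Among 34 extracellular matrix genes 2 were below (median -0.28, and -0.01 without WT ASO Control 1). These were Col3a1, a fibrillar collagen, at 163 and 286 CPM in WT ASO1 and 292 to 686 CPM in WT ASO Control, and Hspg2, the basement membrane proteoglycan perlecan, at 284 and 285 CPM and at 289 to 409.6 CPM. The members of smallest p, Cilp and Nid1, had log2FC of -1.12 ± 0.56 and -0.55 ± 0.27 (SE), and their groups overlapped.

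The same control library carried the adipocyte signal. Over 13 adipocyte markers the median difference was -1.30 and -0.82 in WT ASO1 1 and 2, inside the range of the controls, which ran from 1.58 in WT ASO Control 1 to -1.66 in WT ASO Control 4. Plin1, which coats lipid droplets, stood at 0.531 and 0.503 CPM in WT ASO1 and at 6.66, 2.58, 1.07 and 0.477 CPM in WT ASO Control. Car3, a carbonic anhydrase of fat that muscle also expresses, lay the other way, at 5266 and 3027 CPM in WT ASO1 and 2034 to 3829 CPM in WT ASO Control. The list median log2FC of -1.89 was -0.83 without WT ASO Control 1. For 10 tendon markers the median was -0.32, and 0.54 without that library, with Scx, the tendon transcription factor, at 3.04 and 1.91 CPM in WT ASO1 and 1.14 to 2.85 CPM in WT ASO Control, and Mkx at a log2FC of 0.73 ± 0.83 (SE).

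Immune and vascular markers showed no shared direction in the treated libraries. Over 20 macrophage markers the median difference was -0.69 in WT ASO1 1 and 0.63 in WT ASO1 2, against 0.80 in WT ASO Control 1 and -0.39 to -0.18 in the other controls. Lyz2, the macrophage lysozyme, stood at 9.45 and 29.7 CPM in WT ASO1 and at 34.3, 15.4, 16.3 and 15.7 CPM in WT ASO Control. Aif1 and Lyve1, the members of smallest p, had log2FC of 0.80 ± 0.54 and -0.87 ± 0.63 (SE). Of 17 lymphocyte and neutrophil markers 7 were high enough to test, with medians of -0.43 in WT ASO1 1 and 0.89 in WT ASO1 2. Itgax and Cd52 had log2FC of 1.01 and 0.97, with 0.863 and 1.51 CPM in WT ASO1 2. The T cell marker Cd8a and the B cell marker Ms4a1 had 0 and 3 counts over the 6 WT libraries. Of 15 endothelial markers Esam, a junction protein, was above (log2FC 0.22) and Tek, the angiopoietin receptor, below (-0.45), with a list median of -0.04 and overlapping groups for Eng (-0.29). Of 12 pericyte and smooth muscle markers none was above or below (median -0.05), with Higd1b at 0.46 and Abcc9 at -0.16. Of 12 Schwann cell markers none was above or below (median -0.33, and 0.12 without WT ASO1 1), with Cdh19 at -0.94 and Pllp at -0.53.

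**Figure D4:**
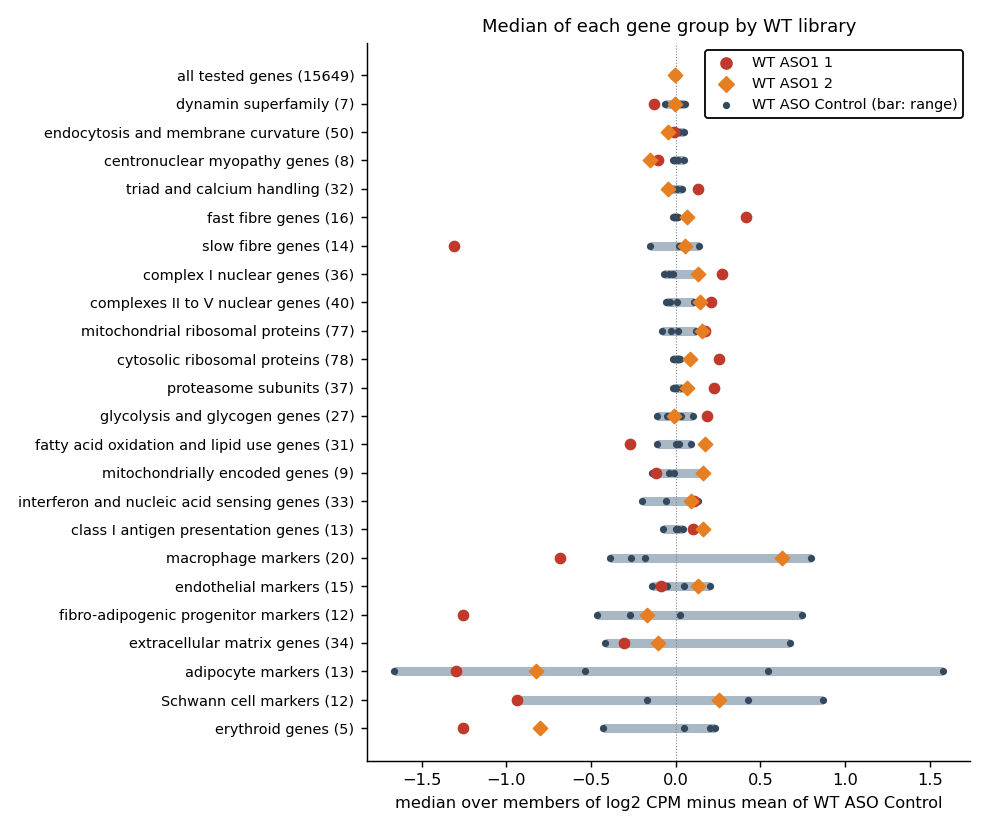
Median over the tested members of each gene group (number in brackets) of log2 CPM minus the mean of the 4 WT ASO Control libraries. Circles are WT ASO1 1, diamonds WT ASO1 2, dots the controls and grey bars their range. Both treated libraries lie above the controls for the nuclear respiratory, ribosomal and proteasome groups and below them for erythroid genes, and they part for slow fibre, fatty acid and macrophage genes.

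Programmes of muscle stress, repair and growth gave few separated members. Among 20 atrophy and FoxO genes 3 were above and 1 below (median -0.05). The metallothioneins Mt1 and Mt2, which bind zinc, were the 2 of smallest p. Mt2 stood at 82.0 and 72.0 CPM in WT ASO1 and at 57.9, 28.7, 26.5 and 25.8 CPM in WT ASO Control (log2FC 1.15 ± 0.45, SE, edgeR adjusted p = 0.41), and Mt1 at 80.7 and 74.2 CPM and at 37.6 to 53.4 CPM (log2FC 0.84 ± 0.30, SE, edgeR adjusted p = 0.38). Neither was called by edgeR or DESeq2. Of 19 embryonic and regeneration genes (median -0.07) Des, the desmin of the fibre, was above (0.17) and Igf2, a fetal growth factor under 1 CPM in every WT library, below (-0.87). Of 20 denervation and neuromuscular junction genes (median 0.07) Rapsn, which clusters acetylcholine receptors, was above (0.28) and 1 gene was below. Lrp4, the agrin receptor, had -0.52 with overlapping groups. Of 14 satellite cell markers (median -0.14) Sdc4, a syndecan, was above (0.44) and the receptor Fgfr4 below (-0.40), and the groups overlapped for Heyl (-0.38). Of 21 myostatin and growth factor genes (median -0.17) Wfikkn2, which binds myostatin, was above (0.16) and Igf1r, the receptor for insulin-like growth factor 1, below (-0.39) together with Igf2, while the groups overlapped for the binding protein Igfbp6 (-0.84).

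Of 19 proliferation genes 4 were above and 1 below, with a median log2FC of 0.27, and of 0.05 without WT ASO1 1. The median difference was 0.39 in WT ASO1 1 and 0.05 in WT ASO1 2, against -0.23 to 0.20 in the controls. Pcna, the sliding clamp of replication, stood at 8.28 and 9.06 CPM in WT ASO1 and at 6.84 to 7.02 CPM in WT ASO Control (log2FC 0.32 ± 0.10, SE). Mcm3, of the replicative helicase, had 0.35. Of 12 polyamine enzymes 2 were above, the antizymes Oaz2 and Oaz1, which restrain ornithine decarboxylase, with log2FC of 0.22 and 0.30 (list median 0.05). Of 23 autophagy and lysosome genes (median 0.01) the lysosomal membrane protein Lamp1 and the regulator Tfeb were above, both at 0.13, and the groups overlapped for the protease Ctsd (0.22). The medians were -0.09 for 19 clock genes, with Bhlhe41 at 0.20, and 0.03 for 24 immediate early genes. Fos stood at 8.1 and 6.08 CPM in WT ASO1 and at 64.3 CPM in WT ASO Control 3, with 7.24 to 14.1 CPM in the other controls (log2FC -1.72 ± 1.22, SE), and Klf6 had -0.26. The medians were -0.05 for 15 p53 response genes, with Bax at 0.21 and Phlda3 at 0.22, and 0.01 for 12 genes of the integrated stress response, with Phgdh at -1.79 ± 0.88 (SE) and Atf4 at 0.21. Of 22 heat shock genes 1 was above (median -0.06). The near-identical Hspa1a and Hspa1b had log2FC of -1.87 and -1.98, with 1.27 CPM or less in WT ASO1 and in 2 of the 4 controls, and 3.65 CPM or more in the other two controls.

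The effect of ASO1 in WT was then set against its effect in the mutant, which shares no library with it. In Dnm2SL/+, 2351 genes (15%) were called, of which 1089 rose (6.96%) and 1262 fell (8.06%). The genes that rose in the mutant had a median log2FC of -0.0012 in WT and 0.39 in the mutant, with 49.9% above 0 in WT. The genes that fell had a median of -0.0056 in WT and -0.62 in the mutant, with 51.3% below 0. These genes were chosen by their values in the mutant, so the mutant medians are large by choice. Across genes the 2 sets of log2FC had a Pearson r of 0.045 and a Spearman rho of 0.0043, a description over 15649 genes that are not independent of each other. The WT log2FC rest on 2 treated libraries, and noise in them weakens both coefficients.

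The difference between the 2 effects was called for 442 genes (2.82%), with 304 more positive in WT (1.94%) and 138 more negative (0.882%). In 308 of them (69.7%) the larger absolute log2FC was the mutant's. In 232 (52.5%) both WT ASO1 libraries lay outside the control range, and 211 (47.7%) had an unadjusted p under 0.05 in WT. The count was 30 without WT ASO1 1, and it ran from 175 without WT ASO Control 3 to 706 without Dnm2SL/+ ASO Control 1 when any other library was left out.

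The 6 genes of smallest p in this test fell in the mutant and stood level or higher in WT. Cav3 had a log2FC of 0.33 in WT and -0.66 in Dnm2SL/+ (interaction adjusted p = 0.0018, edgeR). Tspo, an outer mitochondrial membrane protein, stood at 12.8 and 12.4 CPM in WT ASO1 and at 9.28 to 12.1 CPM in WT ASO Control, a log2FC of 0.25 in WT against -1.46 in Dnm2SL/+ (interaction adjusted p = 0.0022). Mvp, the major vault protein, had 0.21 and -0.98, Cd63, a tetraspanin of late endosomes, 0.23 and -0.78, Rnh1, the ribonuclease inhibitor, 0.07 and -0.97, and Ankrd10 0.24 and -0.92. Under the control oligonucleotide all 6 were higher in Dnm2SL/+ than in WT, by 0.58 to 2.33 on the log2 scale, a comparison that shares its libraries with both effects. Mvp and Ankrd10 overlap another annotated gene on the same strand.

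The 12 higher and the 12 lower genes were chosen by their p in WT, which is part of the interaction, so their interactions are given as a description. Of the 12 higher genes 8 had a called interaction, and for Srp9, Fis1, Tmem208 and Psmb4 the log2FC of 0.44, 0.34, 0.36 and 0.26 in WT stood against -0.21, -0.17, -0.25 and -0.20 in the mutant, where each fell. Of the 12 lower genes 8 had one too, and Pigg, at -0.43 in WT, rose by 0.42 in the mutant. Bin1 had 0.23 in WT and fell by 0.42 in the mutant (interaction adjusted p = 0.010). Speg had -0.21 and 0.27 (0.024), Scn4a -0.37 and 0.35 (0.011), and Cpt1b -0.54 and 0.53 (0.0081). Mt2 had 1.15 and -1.27 (0.035). The proteasome list was added after the WT values were seen, so its counts are a description too. Of its 37 subunits 9 had a called interaction, each more positive in WT (1.94% of all tested genes), and 14 fell in the mutant (8.06% of all). With the exon length offset the WT median of this list was 0.07 and the WT log2FC of Speg -0.09. The interaction count over all genes was then 298. For the 76 nuclear respiratory genes none had a called interaction, and 24 of them rose in the mutant, where 6.96% of all tested genes rose. Their median log2FC was 0.17 in WT and 0.22 in Dnm2SL/+. With the exon length offset the WT median was 0.05, and the offset was not fitted for the effect in the mutant.

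**Figure D5:**
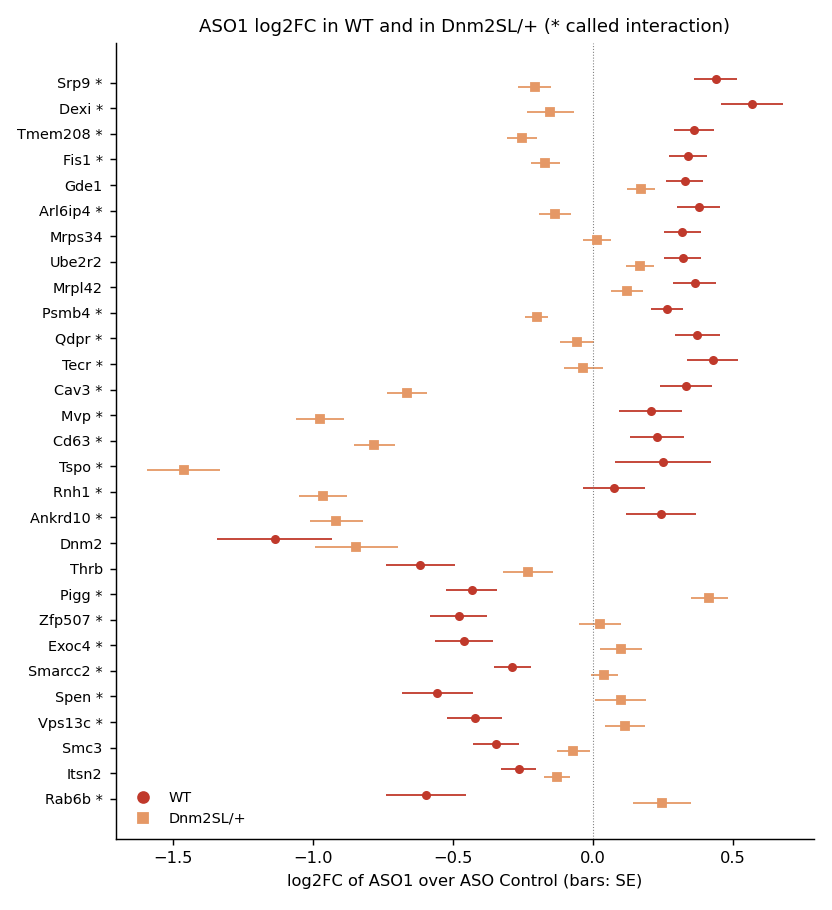
Log2FC of ASO1 over ASO Control (horizontal axis, bars are SE) in WT (circles) and in Dnm2SL/+ (squares) for the 12 higher genes, the 6 genes of smallest interaction p and 11 of the 12 lower genes, from top to bottom. A star marks a called interaction. Dnm2 is low in both genotypes, at -1.14 and -0.85, while the 6 interaction genes lie at -0.66 or below only in the mutant.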

How the data were processed

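Poly(A) RNA of mouse tibialis anterior was sequenced from a stranded kit, per the labels. Trimming with cutadapt 1.10, alignment tools STAR 2.5.3a and Bowtie2 2.2.8, the counter HTSeq 0.6.1p1 and the build GRCm38 (mm10) stand in the submitters' processing notes. Which annotation was counted, and whether by strand, is not given in the sources used here. The authors deposited raw counts per gene for 30037 Ensembl genes, all matched to symbols in GENCODE M21. The paper supplied did not describe this experiment and gave no method.

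Genes were kept with filterByExpr by group (15649, or 52.1%). After TMM scaling, the edgeR 4.0.16 quasi-likelihood test (R 4.3.3) was run over all 16 libraries, with a mean per group and 12 residual degrees of freedom. Calls were made at a Benjamini-Hochberg adjusted p under 0.05. SE was obtained by dividing the absolute log2FC by the root of F. CPM are counts per library total after TMM, and a prior count of 2 was added for log2 CPM in list medians and principal components. CPM are not divided by gene length, so levels were not compared between genes. Named genes were Dnm2, the 12 of smallest p in each direction (mean log2 CPM of at least 1, groups not overlapping, no provisional symbol), the 6 of smallest interaction p and the 2 of smallest p in each of 39 lists. Further genes were singled out after their values were seen. A few genes that the naming rule or the lists hold are not reported here. The comparison, lists and naming rule were chosen with earlier results of these data known, and 3 lists were added later. Of 746 listed genes 719 were tested. Of 103 named genes, exons of 11 overlap another gene on the same strand and of 33 on the other. Exon lengths are unions over GENCODE M21 transcripts, and the length offset used lowess with a span of 0.5. Permutation tests doubled the smaller tail. WT library pairs differed beyond sampling noise (chi-squared per degree of freedom 11.4 to 43.0), so none was a duplicate. The fits were tested on simulated data, where DESeq2 had a larger share of false calls than edgeR and edgeR missed most of the smallest changes. Alternatives were scaling by RLE or upper quartile, no filter, more than 1 CPM in 2 libraries, DESeq2 1.42.0, voom with quality weights in limma 3.58.1, only the groups compared, a replicate block, removal of the 20 most counted genes, an absolute log2FC above 1, each library left out, the 500 most variable genes for principal components and the exon length offset. Whether same-numbered WT ASO1 and WT ASO Control samples are paired cannot be told with 2 WT ASO1 libraries.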

Additional observations from a re-analysis of the deposited data

Results flagged for a closer look

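In 10 of 148 groups of 4 to 6 libraries checked, 1 library lay far from the others, where chance gives about 1 in 20. All were WT ASO Control libraries, and WT ASO1, with 2 libraries, could not be checked in this way. WT ASO Control 1 was high for Mt2 (57.9 CPM) and Lyve1 (7.62 CPM). WT ASO Control 3 was low for Tmem208 (13.9 CPM) and Qdpr (39.0 CPM) and high for Fos (64.3 CPM). WT ASO Control 4 was low for Arl6ip4 (21.8 CPM) and Ankrd10 (27.8 CPM) and high for Mrps34 (31.4 CPM), Rab6b (16.1 CPM) and Tnni2 (7579 CPM).

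For 29 genes, 1 of them not reported here, the effect of ASO1 in WT differed from that in Dnm2SL/+ by the edgeR interaction test. The log2FC in WT minus that in Dnm2SL/+ was positive for Srp9 (0.65), Dexi (0.72), Tmem208 (0.61), Fis1 (0.51), Arl6ip4 (0.51), Psmb4 (0.47), Qdpr (0.43), Tecr (0.46), Cav3 (1.00), Mvp (1.18), Cd63 (1.01), Tspo (1.71), Rnh1 (1.04), Ankrd10 (1.16), Des (0.81), Mt2 (2.42), Scx (1.58) and Oaz2 (0.38). It was negative for Pigg (-0.85), Zfp507 (-0.51), Exoc4 (-0.56), Smarcc2 (-0.33), Spen (-0.66), Vps13c (-0.54), Rab6b (-0.84), Speg (-0.49), mt-Nd5 (-0.85) and Cpt1b (-1.07).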

How the results depend on the processing

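edgeR called no gene in WT under any alternative fit to all 6 WT libraries, and DESeq2 called 101. Leaving out 1 library gave 0 to 9 calls, the 9 without WT ASO1 replicate 2. The log2FC of Dnm2 stayed between -1.20 and -1.08, and DESeq2 (-1.13) was the 1 alternative that called it. The interaction count of 442 became 274 with no filter, 1076 with DESeq2, 115 with the replicate block and 124 with an absolute log2FC above 1, and ran from 30 to 706 with a library left out. The replicate block left the WT count at 0. Same-numbered WT samples had correlations of -0.073 and -0.071. With 2 WT ASO1 libraries the deviations mirror each other, so these values cannot show whether the numbers pair the samples. Over 1623 comparisons of the 102 other named genes with alternatives, 1588 kept direction and side of the threshold, 32 became called (with DESeq2 or without WT ASO1 replicate 2) and 3 changed sign, namely Psme2 (-0.0025 with the exon length offset), Tnni1 (0.077, with -2.46 to 0.077 over left-out libraries) and mt-Nd5 (0.029, with -0.41 to 0.029), the last 2 without WT ASO1 replicate 1. The difference in the mitochondrial share of counts, -0.27 percentage points, was 1.33 without WT ASO1 replicate 1 and ran from -1.87 to 1.33 over left-out libraries. The leading WT component held 39.1% of variance with the 500 most variable genes, and WT ASO1 1 then lay inside the control range. The cause of these shifts was not tested. With 2 treated libraries, a change in 1 of them and an effect of ASO1 cannot be told apart. A change that both share is not thereby shown to be an effect of ASO1. The smallest exact permutation p for 2 against 4 libraries is 0.13.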
